A study of Mus musculus with 14 samples.

Results

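Activity-regulated genes are genes whose transcription follows synaptic and electrical activity, from the immediate early transcription factors to the secreted and synaptic proteins that come after them. A set of 39 such genes was described here in hippocampal cells of the mouse. Members were chosen by symbol, matched through the Ensembl identifier in GENCODE M21, and each of the 39 symbols had exactly 1 row among the 43346 genes of the count table. The rule uses symbols alone and no measured value, but the members and lists were chosen with earlier results of these data known.

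The cells were live GFP-positive cells sorted from the hippocampus of wild-type C57BL/6 mice at day 14, about 800 to 1000 per sample, which the labels call abGCs, the usual short form for adult-born granule cells. DREADD Pilo (n = 3 libraries) came from mice with seizures whose cells carried a DREADD, a designer receptor driven by the drug CNO, and were labelled as silenced. DREADD Sham (n = 4) carried the DREADD without seizures, CAG-GFP Pilo (n = 4) had seizures and CAG-GFP Sham (n = 3) had none, and both of these groups are labelled with GFP and no receptor. All 4 groups received CNO, so no group shows the cells without it. In the Pilo groups status epilepticus, a prolonged seizure, was set off with pilocarpine at 300 mg/kg after scopolamine methyl nitrate and terbutaline, and ended with diazepam after 3 h. The Pilo labels also give the temperature of a chamber. The Sham labels give none of these drugs and no chamber. Pilo and Sham groups may therefore differ in these treatments as well as in seizures. The labels give neither the vector nor the cell type in which the promoters were active, and nothing in them ties a library to an animal of its own, so each p-value refers to the variation among these 14 libraries, which may be technical.

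In neurons, calcium entering through synaptic and voltage-gated channels activates kinases that phosphorylate CREB and the SRF complex at promoters that are already open. Immediate early genes such as Fos, Egr1 and Npas4 are then transcribed within minutes, and the transcription factors they encode act with MEF2 factors on later genes such as Bdnf. In the dentate gyrus, where granule cells are born throughout life, seizures are a classical inducer of this programme. Many of the same genes also respond to growth factors, stress and cell dissociation in glia and other cells.

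The sequence most often linked to this response is the cAMP response element, TGACGTCA, and its 5-base core TGACG, to which CREB and ATF proteins bind. RefSeq promoters (GRCm38.p6, 250 bases before to 50 bases after each start) were matched for 31 of the 39 members, with 45 starts in all. TGACG, searched on both strands, occurred in 22 of these 45 windows (48.9%), belonging to 19 members, against 6837 of 32851 windows of all genes (20.8%). The full TGACGTCA, which contains TGACG on each strand, occurred in 2 member windows (4.44%), those of Btg2 and Ppp1r15a, against 1.79% of all windows. The CArG box bound by SRF was found in 4 windows (8.89%), all of them starts of Egr2, against 1.63%. The EGR motif GCGNGGGCG occurred in 8 windows (17.8%) against 5.55%, the AP-1 motif TGANTCA in 1 (2.22%) against 7.81%, and TATAAA in 7 (15.6%) against 13.6%. A match describes letters in these windows and shows no binding.

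Upstream bases of 4 members with different matches follow, printed 5′ to 3′ on the gene's strand, with TGACG on either strand in capitals (CGTCA where it lies on the other strand). Fos is shown for a pair of separate cores, Nr4a1 for 4 cores, Btg2 for the full palindrome and Gadd45g, which separated CAG-GFP Sham from every other library, for having none in this window. The windows are chr12:85473640-85473889 (plus strand) for Fos, chr15:101266596-101266845 (plus) for Nr4a1, chr1:134079156-134079405 (minus) for Btg2 and chr13:51846425-51846674 (plus) for Gadd45g.
Fos: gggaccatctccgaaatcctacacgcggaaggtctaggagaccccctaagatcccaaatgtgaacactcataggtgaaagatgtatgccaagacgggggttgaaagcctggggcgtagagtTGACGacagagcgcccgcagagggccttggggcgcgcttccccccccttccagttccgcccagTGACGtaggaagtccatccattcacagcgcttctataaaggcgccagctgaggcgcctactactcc
Nr4a1: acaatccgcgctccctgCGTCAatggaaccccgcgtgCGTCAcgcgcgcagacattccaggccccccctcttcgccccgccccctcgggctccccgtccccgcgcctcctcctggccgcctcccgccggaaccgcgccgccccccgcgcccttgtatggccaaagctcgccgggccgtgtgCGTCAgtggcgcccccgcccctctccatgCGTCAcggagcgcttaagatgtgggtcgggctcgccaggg
Btg2: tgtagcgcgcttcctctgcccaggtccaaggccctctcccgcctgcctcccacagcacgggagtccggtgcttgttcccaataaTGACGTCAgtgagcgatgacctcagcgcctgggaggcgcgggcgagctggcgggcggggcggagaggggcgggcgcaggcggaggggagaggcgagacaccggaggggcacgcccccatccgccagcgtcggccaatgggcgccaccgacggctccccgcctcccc
Gadd45g: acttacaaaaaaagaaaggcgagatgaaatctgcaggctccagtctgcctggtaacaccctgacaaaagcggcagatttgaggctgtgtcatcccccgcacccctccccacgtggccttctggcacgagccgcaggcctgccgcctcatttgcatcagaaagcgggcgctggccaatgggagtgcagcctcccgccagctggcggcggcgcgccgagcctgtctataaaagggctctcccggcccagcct

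The libraries held between 10613291 and 38614639 counts and 9372 to 20863 detected genes. The libraries fell into 2 sets by the form of their library names, and pseudogenes took 0.117% to 0.2% of counts in set 1 against 4.33% to 8.12% in set 2. Set 2 was made up of every DREADD Pilo library with libraries 3 and 4 of DREADD Sham and 1 and 2 of CAG-GFP Pilo, and set 1 of libraries 1 and 2 of DREADD Sham, 3 and 4 of CAG-GFP Pilo and every CAG-GFP Sham library. No set held both DREADD Pilo and CAG-GFP Sham, so between these 2 groups set and treatment cannot be told apart. Markers of several cell types were present: summed levels of 18 mature granule cell markers were 142 to 912 CPM in DREADD Pilo, 702 to 2490 in DREADD Sham, 2020 to 5340 in CAG-GFP Pilo and 586 to 789 in CAG-GFP Sham. The 14 astrocyte markers summed to 1800 to 4230 CPM in DREADD Pilo, 3110 to 5410 in DREADD Sham, 1320 to 7390 in CAG-GFP Pilo and 45800 to 46500 in CAG-GFP Sham. The 13 oligodendrocyte markers summed to 1560 to 46400 CPM in DREADD Pilo, 20100 to 42500 in DREADD Sham, 1650 to 39900 in CAG-GFP Pilo and 1250 to 1460 in CAG-GFP Sham. The 8 markers of their precursors summed to 62.1 to 2320 CPM in DREADD Pilo, 659 to 1470 in DREADD Sham, 186 to 1400 in CAG-GFP Pilo and 31.6 to 49.9 in CAG-GFP Sham. The granule cell factor Prox1 was at 0 in DREADD Pilo 3 and CAG-GFP Pilo 4, and the immature neuron marker Dcx at 0 in those 2 libraries and in CAG-GFP Sham 1. DREADD Pilo 3 stood apart through choroid plexus markers (190000 CPM, against at most 17300 elsewhere) and mitochondrial genes (25.8% of counts), and CAG-GFP Pilo 4 had the fewest genes detected. In such bulk samples fewer cells of a type and less RNA per cell cannot be told apart.

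All 39 members had enough counts to be tested, and 20 of them were counted in every library. Levels are given as CPM, reads relative to the library's total after edgeR's TMM correction for library composition. Between 29 and 39 members were above 0 in a library. The summed level of the 39 members was 5950, 6230 and 3030 CPM in DREADD Pilo, 2730, 3120, 6730 and 6210 CPM in DREADD Sham, 5900, 4150, 2490 and 2300 CPM in CAG-GFP Pilo, and 4600, 3240 and 3470 CPM in CAG-GFP Sham. The groups overlapped throughout, and within DREADD Sham and CAG-GFP Pilo the higher libraries were those of set 2. Per kilobase of exon, Fos had the highest level (426 CPM per kb on average over the 14 libraries), followed by Junb (287) and Gadd45g (282), and Egr3 the lowest (0.0581).

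No member passed the test in any of the 6 comparisons, with edgeR's quasi-likelihood F-test and Benjamini-Hochberg adjustment at 0.05 over 18676 genes. Of all genes tested, 0.241% were called for CAG-GFP Pilo and 0.3% for DREADD Sham, each set against CAG-GFP Sham, 0.225% for DREADD Pilo against the same group, and 0% for DREADD Pilo against CAG-GFP Pilo, for DREADD Pilo against DREADD Sham and for the interaction. At an unadjusted p under 0.05 there were 10 members (25.6%, beside 15.4% of all genes tested) for CAG-GFP Pilo, 7 (17.9%, beside 18.6%) for DREADD Sham and 7 (17.9%, beside 19.2%) for DREADD Pilo, each set against CAG-GFP Sham. There were 4 (10.3%, beside 5.36%) for DREADD Pilo against CAG-GFP Pilo, 0 (beside 5.18%) for DREADD Pilo against DREADD Sham and 7 (17.9%, beside 11.7%) for the interaction, so that the member shares lay on both sides of those of all genes. DESeq2 called 7, 5, 6, 0, 0 and 2 members after adjustment in the 6 comparisons, where it called 12.6%, 15.2%, 15.6%, 0.984%, 0.888% and 8.5% of all genes. Limma with voom weights called 2, 3 and 2 members in the first 3 comparisons, beside 4.16%, 4.59% and 5.38% of all genes, and 0 in the other 3, beside 0%, 0% and 0.198%. The comparisons share their control libraries and are not independent. Members are described below, and it is stated for many of them where the libraries of 2 groups did not overlap. How often this occurred among all genes is not given here, so it is not read as particular to the members.

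**Figure D1:**
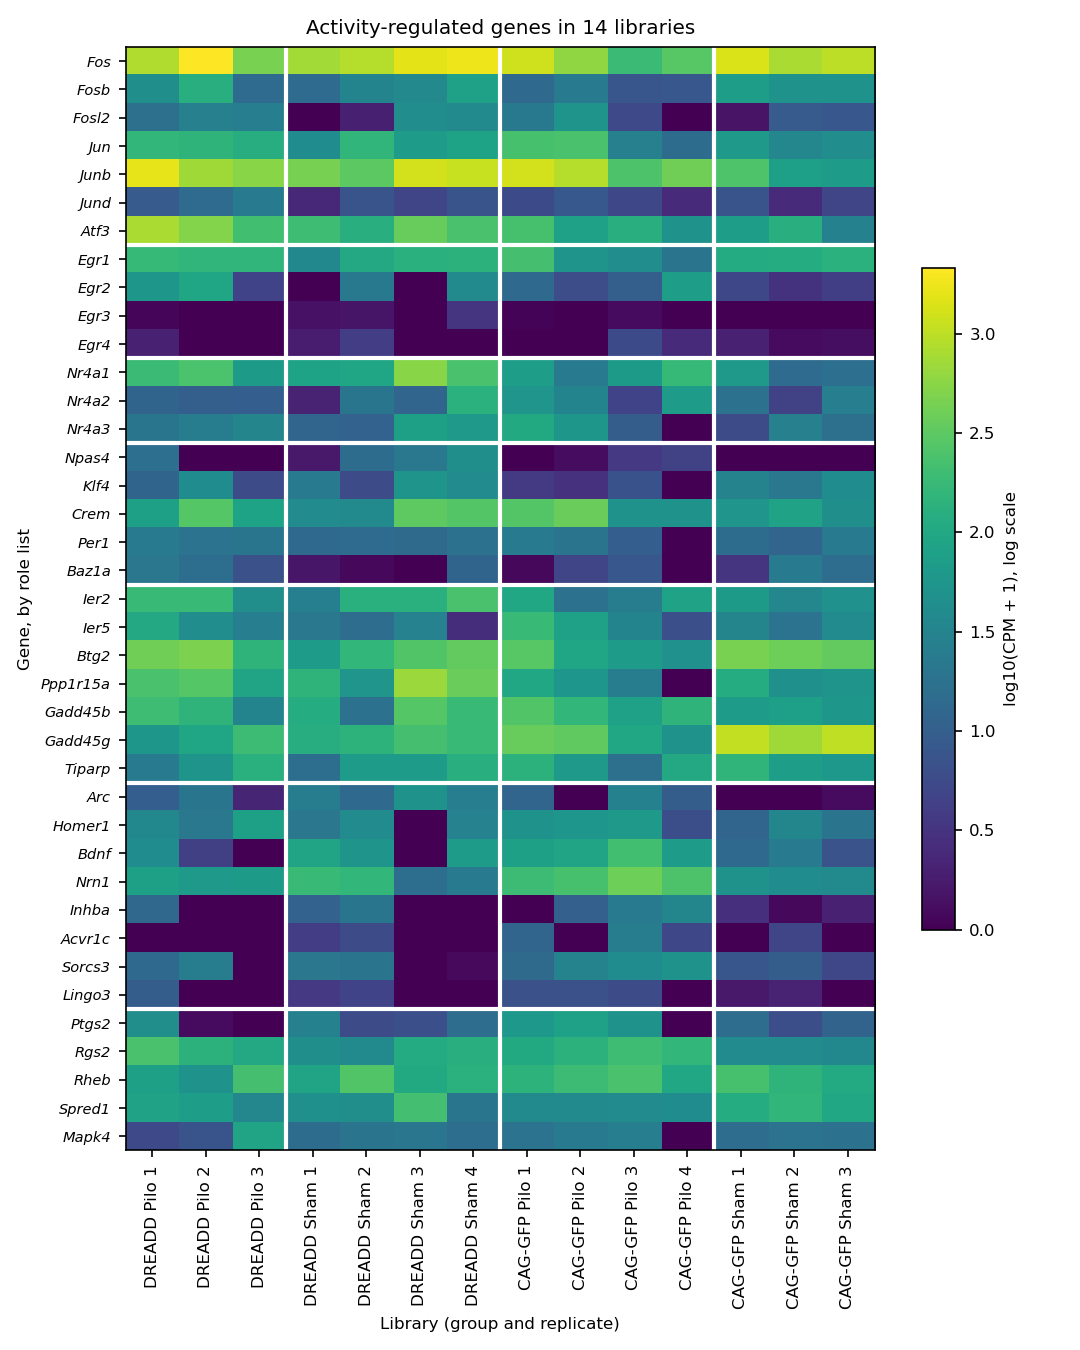
Levels of the 39 members (rows, grouped by role) in the 14 libraries (columns, grouped as DREADD Pilo, DREADD Sham, CAG-GFP Pilo and CAG-GFP Sham), as log10(CPM + 1) in colour. Fos is bright in every library, Egr3 is dark throughout, and Arc and Npas4 are dark in the 3 CAG-GFP Sham libraries.

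AP-1 is a dimer of a FOS and a JUN protein, and Atf3 is a stress-induced partner from the ATF family. Fos was at 872, 2150 and 457 CPM in DREADD Pilo, at 745, 919, 1590 and 1750 CPM in DREADD Sham, at 1240, 604, 188 and 294 CPM in CAG-GFP Pilo, and at 1390, 823 and 994 CPM in CAG-GFP Sham. The groups overlapped, the 3 CAG-GFP Sham libraries lay within the range of DREADD Pilo, and CAG-GFP Pilo 3 and 4 were the lowest of all. The fitted log2 fold change of Fos was -0.87 ± 0.67 (SE) for CAG-GFP Pilo against CAG-GFP Sham (edgeR adjusted p = 0.544) and 0.99 ± 0.67 for DREADD Pilo against CAG-GFP Pilo (edgeR adjusted p = 0.925), with Fos between -0.11 and 0.23 in the other 3 pairs of groups. Junb, a JUN protein that restrains c-Jun activity, was at 1610, 716 and 555 CPM in DREADD Pilo, 448, 306, 1270 and 1130 CPM in DREADD Sham, 1260, 909, 248 and 407 CPM in CAG-GFP Pilo, and 260, 74.3 and 66.6 CPM in CAG-GFP Sham. Of the 11 libraries outside CAG-GFP Sham, CAG-GFP Pilo 3 was the only one not above its highest value for Junb. Atf3 was at 809, 511 and 209 CPM in DREADD Pilo, 200, 121, 362 and 239 CPM in DREADD Sham, 231, 78.8, 127 and 51.2 CPM in CAG-GFP Pilo, and 72.6, 123 and 27.8 CPM in CAG-GFP Sham. All DREADD Pilo libraries lay above the CAG-GFP Sham libraries for Atf3, while DREADD Pilo overlapped the other 2 groups.

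The FOS paralogue Fosb had another order of groups than Junb. It was at 44.1, 125 and 13.5 CPM in DREADD Pilo, 13.5, 30.6, 36.3 and 80.2 CPM in DREADD Sham, 12.9, 23, 6.8 and 7.02 CPM in CAG-GFP Pilo, and 70, 49 and 49.1 CPM in CAG-GFP Sham. All 4 CAG-GFP Pilo libraries were below all 3 of CAG-GFP Sham. Jun averaged 141 ± 21.9 CPM (SD, n = 3) in DREADD Pilo, 86.8 ± 49.3 (n = 4) in DREADD Sham, 128 ± 124 (n = 4) in CAG-GFP Pilo and 45.3 ± 13.7 (n = 3) in CAG-GFP Sham. Fosl2 ran from 0 to 51.3 CPM and Jund, which is usually constant in cells, from 1.37 to 22.5 CPM. Every DREADD Pilo library was above every CAG-GFP Sham library for Jun and Fosl2. For Jund the DREADD Pilo libraries (8.09, 13.8 and 22.5 CPM) were above all others, which reached at most 7.18 CPM.

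The EGR zinc fingers bind GC-rich promoter sites and are fast targets of SRF. Egr1, the member of the family with the highest mean CPM (a value that gene length also affects), was at 171, 155 and 153 CPM in DREADD Pilo, 35.2, 101, 130 and 138 CPM in DREADD Sham, 226, 52.4, 42 and 18.1 CPM in CAG-GFP Pilo, and 110, 113 and 134 CPM in CAG-GFP Sham. CAG-GFP Pilo held both the highest and the lowest value of Egr1. Every DREADD Pilo library was above every library of DREADD Sham and CAG-GFP Sham for Egr1. The log2 fold change of Egr1 was -0.49 ± 0.73 for CAG-GFP Pilo against CAG-GFP Sham (edgeR adjusted p = 0.795) and 0.92 ± 0.72 for DREADD Pilo against CAG-GFP Pilo (edgeR adjusted p = 0.956). Egr2 was at 57.4, 89.7 and 3.67 CPM in DREADD Pilo, at 0.0245, 21.1, 0 and 37.5 CPM in DREADD Sham, at 12.8, 5.06, 9.29 and 71.3 CPM in CAG-GFP Pilo, and at 4.22, 2.07 and 3.19 CPM in CAG-GFP Sham. Its CAG-GFP Pilo libraries were all above those of CAG-GFP Sham, with an unadjusted p of 0.148 in edgeR. Egr3 did not exceed 2.13 CPM and Egr4 did not exceed 4.61 CPM in any library.

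The NR4A proteins are orphan nuclear receptors that act without a known hormone and whose genes are CREB targets. Nr4a1 was at 187, 247 and 64 CPM in DREADD Pilo, 84, 93.1, 547 and 238 CPM in DREADD Sham, 72.4, 23, 63.5 and 172 CPM in CAG-GFP Pilo, and 62, 13.5 and 15.6 CPM in CAG-GFP Sham. All libraries of both DREADD groups were above those of CAG-GFP Sham, whereas CAG-GFP Pilo overlapped it. Nr4a2 ranged from 1.13 to 135 CPM, both in DREADD Sham. Nr4a3 was at 19, 25 and 32.1 CPM in DREADD Pilo, 11.2, 10.3, 78.5 and 63.1 CPM in DREADD Sham, 104, 56.3, 8.48 and 0 CPM in CAG-GFP Pilo, and 4.77, 27.3 and 15.8 CPM in CAG-GFP Sham, so that the spread within the 2 middle groups exceeded any difference between groups.

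Npas4 is a transcription factor of neurons that is induced by calcium and shapes inhibitory synapses on the active cell, and it lies on chromosome 19, bases 4984355 to 4990316 (GRCm38, minus strand). It was at 15.6, 0 and 0 CPM in DREADD Pilo, 0.712, 13.9, 20.4 and 44.6 CPM in DREADD Sham, 0, 0.276, 2.59 and 3.42 CPM in CAG-GFP Pilo, and 0 in all 3 libraries of CAG-GFP Sham. DREADD Sham was the one group with Npas4 counts in every library, 1833 in all, and DREADD Pilo 1 alone held the 315 counts of DREADD Pilo. Against a floor of 3 counts over the CAG-GFP Sham group, Npas4 was at least 325-fold higher in DREADD Sham; the bound was 181 without DREADD Sham 4, 504 without DREADD Sham 1 and 215 without CAG-GFP Sham 1 or 2. Bounds of this kind allow for counting error alone, because amplified reads that carry no molecular identifier do not stand for separate molecules.

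Klf4, a zinc-finger factor that restrains axon growth, was at 10.7, 40.5 and 5.01 CPM in DREADD Pilo, 23.2, 4.7, 51.3 and 39.4 CPM in DREADD Sham, 2.63, 2.02, 5.82 and 0 CPM in CAG-GFP Pilo, and 30, 20.8 and 41.3 CPM in CAG-GFP Sham. All CAG-GFP Pilo libraries were below all CAG-GFP Sham libraries for Klf4. Crem, which encodes cAMP-responsive activators and the repressor ICER, had the highest mean CPM of these regulators and was at 76.5, 284 and 85.6 CPM in DREADD Pilo, 40, 36.9, 319 and 272 CPM in DREADD Sham, 271, 370, 50.9 and 50.7 CPM in CAG-GFP Pilo, and 54.5, 81.6 and 44.7 CPM in CAG-GFP Sham. Its 5 highest values were all in set 2. The log2 fold change of Crem was 1.62 ± 0.95 for CAG-GFP Pilo against CAG-GFP Sham (edgeR adjusted p = 0.401) and -0.17 ± 0.91 for DREADD Pilo against DREADD Sham (edgeR adjusted p = 1). The clock gene Per1 stayed between 9 and 23.7 CPM in 13 libraries and was 0 in CAG-GFP Pilo 4. Per1 was higher in every DREADD Pilo library (17.8 to 22.8 CPM) than in any DREADD Sham library (12.6 to 16.6 CPM). Baz1a, a chromatin remodeller subunit, ran from 0 to 22.2 CPM.

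Genes of fast feedback and stress include the growth-arrest gene Gadd45g, which lies on chromosome 13, bases 51846678 to 51848468 (GRCm38, plus strand). Gadd45g was at 56.3, 92.1 and 192 CPM in DREADD Pilo, 117, 141, 220 and 181 CPM in DREADD Sham, 356, 325, 96.9 and 49 CPM in CAG-GFP Pilo, and 1070, 715 and 1030 CPM in CAG-GFP Sham. All 3 CAG-GFP Sham libraries were above all 11 others. The mean was 113 ± 70.3 CPM (SD, n = 3) in DREADD Pilo, 165 ± 45.2 (n = 4) in DREADD Sham, 207 ± 156 (n = 4) in CAG-GFP Pilo and 938 ± 194 (n = 3) in CAG-GFP Sham. CAG-GFP Sham was also the group with the summed astrocyte markers at 45800 to 46500 CPM. Its 12 neural stem cell markers summed to 5840 to 6550 CPM, against at most 2130 CPM in any library of the other groups. The part of other cell types in the Gadd45g level was not tested.

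Btg2, an antiproliferative gene, was at 405, 479 and 147 CPM in DREADD Pilo, 65.8, 162, 270 and 342 CPM in DREADD Sham, 291, 92.8, 68.6 and 48.2 CPM in CAG-GFP Pilo, and 455, 399 and 341 CPM in CAG-GFP Sham. It was lower in every CAG-GFP Pilo library than in any CAG-GFP Sham library. Ier5 was at 101, 41.7 and 25.6 CPM in DREADD Pilo and 20.5, 14.4, 29.1 and 1.7 CPM in DREADD Sham, which overlapped in 1 library each, against 5.53 to 173 CPM in CAG-GFP Pilo and 17.4 to 40.1 CPM in CAG-GFP Sham. Ppp1r15a, which directs a phosphatase to the stress-regulated factor eIF2α, ranged from 0 in CAG-GFP Pilo 4 to 670 CPM in DREADD Sham 3. Gadd45b ranged from 16.3 to 283 CPM. It was higher in every CAG-GFP Pilo library (78.6 to 263 CPM) than in any CAG-GFP Sham library (57.8 to 75 CPM), with an unadjusted p of 0.14 in edgeR. Ier2 ranged from 16.7 to 239 CPM and Tiparp, an ADP-ribosyltransferase, from 15.2 to 152 CPM, with overlap among the groups.

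Synaptic and secreted effectors carry the response to the synapse. Arc, which removes AMPA receptors from synapses, lies on chromosome 15, bases 74669083 to 74672570 (GRCm38, minus strand). Arc was at 8.79, 18.8 and 1.22 CPM in DREADD Pilo, 24.8, 12.7, 51 and 25.9 CPM in DREADD Sham, 11.2, 0, 28.3 and 8.65 CPM in CAG-GFP Pilo, and 0, 0 and 0.262 CPM in CAG-GFP Sham. The last group held 5 counts of Arc in all, and CAG-GFP Pilo 2 was the only library outside it at 0. Nrn1, whose membrane-anchored product neuritin promotes neurite growth, lies on chromosome 13, bases 36725361 to 36735131 (GRCm38, minus strand). Nrn1 was at 77.6, 60.2 and 64.3 CPM in DREADD Pilo, 177, 160, 15 and 23.1 CPM in DREADD Sham, 190, 229, 392 and 248 CPM in CAG-GFP Pilo, and 49.5, 40.7 and 37.9 CPM in CAG-GFP Sham. Every CAG-GFP Pilo library was above every DREADD Pilo and every CAG-GFP Sham library.

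Bdnf, the activity-dependent neurotrophin of granule cells, was at 40.3, 3.3 and 0 CPM in DREADD Pilo, 87.1, 51.6, 0 and 69.5 CPM in DREADD Sham, 77.1, 87.1, 211 and 66.1 CPM in CAG-GFP Pilo, and 12.9, 22.7 and 6.02 CPM in CAG-GFP Sham. The CAG-GFP Pilo libraries were again above those of DREADD Pilo and CAG-GFP Sham, with unadjusted edgeR p-values of 0.121 and 0.114. Sorcs3, a sorting receptor of the sortilin family, was at 12.7, 24.1 and 0 CPM in DREADD Pilo, 19.7, 18, 0 and 0.217 CPM in DREADD Sham, 13.2, 29.6, 40.4 and 50.2 CPM in CAG-GFP Pilo, and 6.76, 8.73 and 4.13 CPM in CAG-GFP Sham. Inhba, the activin A subunit, reached 32.8 CPM in CAG-GFP Pilo 4, was at 0 in 5 libraries, and did not exceed 1.89 CPM in CAG-GFP Sham. The activin receptor gene Acvr1c was at 0 in all 3 DREADD Pilo libraries, at 3.09, 4.7, 0 and 0 CPM in DREADD Sham, at 11.4, 0, 24.3 and 4.33 CPM in CAG-GFP Pilo, and at 0, 3.9 and 0 CPM in CAG-GFP Sham. Against a floor of 3 counts over the DREADD Pilo group, Acvr1c was at least 177-fold lower there than in CAG-GFP Pilo; without CAG-GFP Pilo 3 the bound was 71.7, without CAG-GFP Pilo 4 it was 272, without DREADD Pilo 1 it was 98.9 and without DREADD Pilo 2 it was 112. All DREADD Pilo libraries are of set 2, where CAG-GFP Pilo 1 was the only library with Acvr1c counts (121). The set 1 libraries CAG-GFP Pilo 3 and 4 held 985 and 232 counts, so this bound mixes group and library set. Homer1, a scaffold of metabotropic glutamate receptors, ran from 0 to 78 CPM and Lingo3 from 0 to 8.69 CPM with overlapping groups. Counts per gene do not separate Homer1a from longer Homer1 forms or the Bdnf transcripts from each other.

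**Figure D2:**
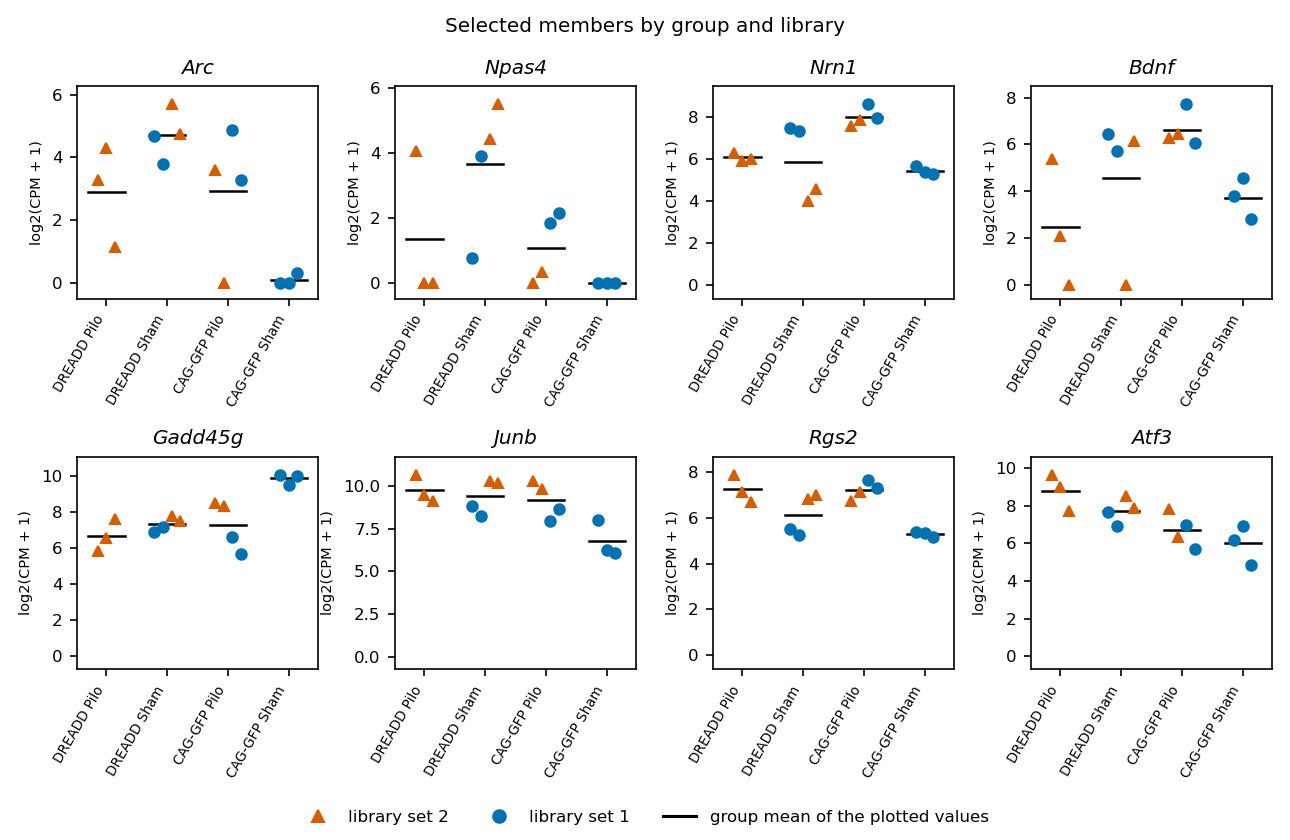
Levels of 8 members as log2(CPM + 1) in each library, by group from DREADD Pilo to CAG-GFP Sham; triangles are libraries of set 2, circles libraries of set 1, and lines group means of the plotted values. Arc and Npas4 lie at or near 0 in CAG-GFP Sham, Nrn1 and Bdnf have their highest group mean in CAG-GFP Pilo, and Gadd45g is above all others in CAG-GFP Sham.

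Among signalling effectors Rheb, the GTPase that activates mTORC1, had the highest mean CPM and was at 77.2, 49.7 and 224 CPM in DREADD Pilo, 87.5, 265, 105 and 133 CPM in DREADD Sham, 142, 194, 238 and 97.7 CPM in CAG-GFP Pilo, and 228, 147 and 108 CPM in CAG-GFP Sham. Its log2 fold change was 0.06 ± 0.62 for CAG-GFP Pilo against CAG-GFP Sham (edgeR adjusted p = 0.982) and -0.52 ± 0.62 for DREADD Pilo against CAG-GFP Pilo (edgeR adjusted p = 0.996), and its groups overlapped. Rgs2, a brake on Gq-coupled receptors such as the muscarinic receptors that pilocarpine activates, lies on chromosome 1, bases 143999338 to 144004161 (GRCm38, minus strand). Rgs2 was at 234, 138 and 102 CPM in DREADD Pilo, 44.7, 36.9, 111 and 124 CPM in DREADD Sham, 104, 136, 200 and 158 CPM in CAG-GFP Pilo, and 40.1, 39.2 and 34.6 CPM in CAG-GFP Sham. Every library of both pilocarpine groups was above every CAG-GFP Sham library, and DREADD Sham was split by library set, with 111 and 124 CPM in set 2 against 36.9 and 44.7 CPM in set 1. Spred1, an inhibitor of Ras signalling, was at 82.4, 69.6 and 33.6 CPM in DREADD Pilo, 46, 42.9, 218 and 18.9 CPM in DREADD Sham, 37.2, 37.1, 39.3 and 41.3 CPM in CAG-GFP Pilo, and 114, 156 and 100 CPM in CAG-GFP Sham. Spred1 was below CAG-GFP Sham in both pilocarpine groups without overlap. Ptgs2, which encodes the prostaglandin enzyme COX-2, ran from 0 to 80.6 CPM and the atypical kinase gene Mapk4 from 0 to 86.7 CPM.

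Seizures without silencing are the subject of CAG-GFP Pilo against CAG-GFP Sham. The 5 members with the smallest p were Rgs2, Gadd45g, Nrn1, Arc and Junb. Their log2 fold changes were 1.98 ± 0.59 for Rgs2 (SE; edgeR adjusted p = 0.234), -2.18 ± 0.66 for Gadd45g (0.247), 2.63 ± 0.80 for Nrn1 (0.248), 7.04 ± 2.21 for Arc (0.26) and 2.40 ± 0.79 for Junb (0.277), the Arc value resting on 5 counts in CAG-GFP Sham. The other 5 with an unadjusted p under 0.05 were Npas4, which was higher, and Fosb, Btg2, Klf4 and Spred1, which were lower. Set 1 holds 2 of the CAG-GFP Pilo and all CAG-GFP Sham libraries, and a fit within it gave -3.73 ± 0.40 for Gadd45g (edgeR adjusted p = 0.00316), 2.87 ± 0.34 for Nrn1 (0.0049), 2.20 ± 0.40 for Rgs2 (0.0299), 7.61 ± 2.20 for Arc (0.147) and 1.29 ± 0.60 for Junb (0.427). Within set 1, Fos (-2.16 ± 0.35, edgeR adjusted p = 0.0197) and Btg2 (-2.80 ± 0.47, 0.0207) also passed, so that 5 members were called there beside 2.73% of all genes tested. The calls within set 1 rest on CAG-GFP Pilo 3 and 4 alone, which held 188 and 294 CPM of Fos, where CAG-GFP Pilo 1 and 2 held 1240 and 604 CPM.

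By role, all 8 synaptic and secreted effectors had a higher mean log2 CPM in the 4 CAG-GFP Pilo libraries than in the 3 of CAG-GFP Sham, with a median difference of 2.57, beside 47.3% of all genes tested and a median of -0.14. The count was 8 of 8 with each library left out in turn (median 2.24 to 2.9), and 7 of 8 within set 1 (median 3.05, beside 42.2% of all genes tested that were higher there). The 18 mature granule cell markers showed the same direction in 17 of 18, with a median of 4.02, and 0 of them passed the test. The levels of markers of other cell types also differed. The immature neuron markers were higher in 10 of 12 (median 1.76), and the neural stem cell markers were lower in 8 of 12 (-2.22, with Fabp7 called). The oligodendrocyte precursor markers were higher in 8 of 8 (median 7.46, with Neu4, Pdgfra and Cspg4 called). The oligodendrocyte markers were higher in 12 of 13 (3.23) and the endothelial markers in 13 of 14 (1.94). The astrocyte markers were lower in 14 of 14 (-4.78, with Acsbg1 and Clu called). The part of these cell types in the difference of the synaptic members was not tested. The summed level of the synaptic members was 195, 127 and 144 CPM in DREADD Pilo, 345, 309, 66 and 148 CPM in DREADD Sham, 359, 417, 784 and 415 CPM in CAG-GFP Pilo, and 82.8, 110 and 67.5 CPM in CAG-GFP Sham. Each CAG-GFP Pilo library was above every library of the other groups in this sum, though narrowly for 359 CPM against the 345 CPM of DREADD Sham 1. Nrn1 (190 to 392 CPM) and Bdnf (66.1 to 211 CPM) were its largest parts in every CAG-GFP Pilo library, so it largely restates these genes. The 7 feedback and stress genes were mostly lower, 5 of 7 with a median of -0.52, and 6 of 7 within set 1. The AP-1 and ATF genes were higher in 5 of 7 (median 0.48) over all libraries but in 2 of 7 within set 1 (median -1.19), and in 3 of 7 without CAG-GFP Pilo 2.

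**Figure D3:**
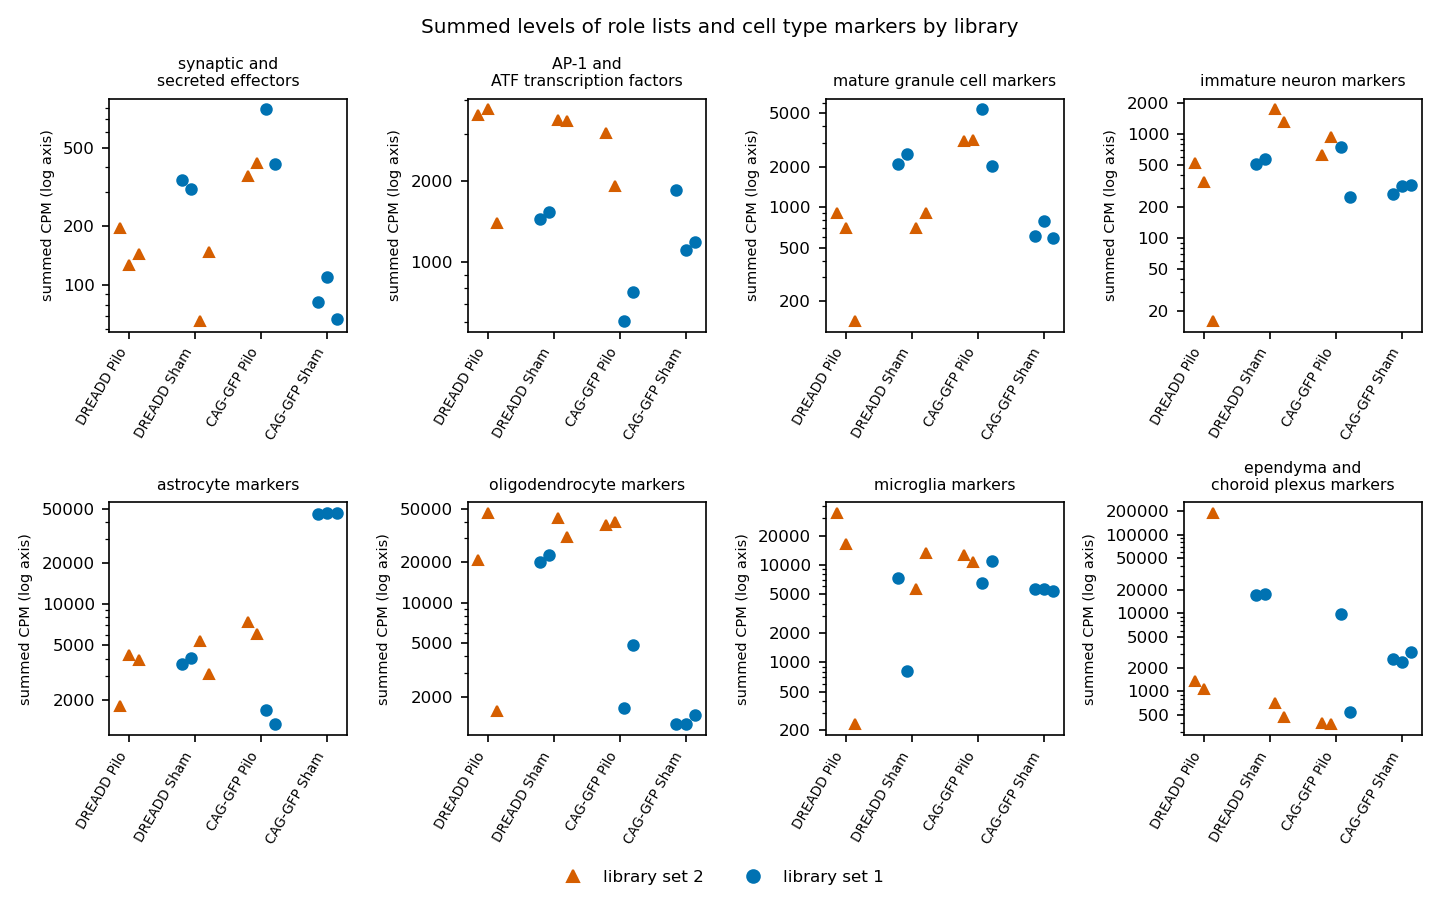
Summed CPM of 2 role lists and 6 marker lists in each library (log axis), by group from DREADD Pilo to CAG-GFP Sham; triangles are set 2 and circles set 1. The 4 CAG-GFP Pilo libraries are the highest for the synaptic and secreted effectors and lie at 2020 to 5340 CPM for the mature granule cell markers, and the astrocyte markers are highest in CAG-GFP Sham, at 45800 to 46500 CPM.

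The receptor without seizures is the subject of DREADD Sham set against CAG-GFP Sham, both under CNO. Gadd45g (-2.51 ± 0.67, edgeR adjusted p = 0.129), Arc (8.28 ± 2.34, 0.148), Junb (2.56 ± 0.80, 0.189) and Nr4a1 (2.98 ± 0.94, 0.196) had the smallest p-values, with Npas4 (0.211), whose fold is bounded above. Within set 1 the values were -2.88 ± 0.38 for Gadd45g (edgeR adjusted p = 0.00812), 7.66 ± 2.20 for Arc (0.149), 1.48 ± 0.60 for Junb (0.376) and 1.53 ± 0.77 for Nr4a1 (0.493). Nrn1 passed within set 1 (1.96 ± 0.33, edgeR adjusted p = 0.0195) but not over all libraries (1.13 ± 0.75, 0.445), where DREADD Sham 3 and 4 were at 15 and 23.1 CPM. The 2 members called within set 1 stand beside 3.07% of all genes tested. The synaptic effectors were higher in 6 of 8 over all libraries (median 0.32, beside 53% of all genes tested that were higher), in 5 of 8 under upper-quartile scaling (median 0.21) and in 8 of 8 within set 1 (median 2.75, beside 51.8% of all genes tested). The mature granule cell markers were higher in 14 of 18 over all libraries (median 2.73) and in 18 of 18 within set 1 (median 4.17). The immature neuron markers were higher in 9 of 12 (median 2.56), and the neural stem cell markers were lower in 8 of 12 (-2.11, with Fabp7 called). The oligodendrocyte precursor markers were higher in 8 of 8 (median 7.39, with Neu4, Pdgfra and Cspg4 called). The oligodendrocyte markers were higher in 13 of 13 (4.41) and the endothelial markers in 14 of 14 (3.79). The astrocyte markers were lower in 14 of 14 (-3.39, with Acsbg1 and Clu called). The part of these cell types in the members' levels was not tested.

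DREADD Pilo against CAG-GFP Sham combines seizures and the silencing receptor, and no within-set value exists. The synaptic effectors were higher in 3 and lower in 5 of 8, with a median of -0.52, beside a median of 0.55 for all genes tested. The log2 fold changes were -3.05 ± 0.76 for Gadd45g (edgeR adjusted p = 0.132), 2.77 ± 0.77 for Atf3 (0.152), 2.85 ± 0.83 for Junb (0.169), 2.06 ± 0.61 for Rgs2 (0.174) and 6.71 ± 2.21 for Arc (0.205). With library set as a covariate, estimated from the 2 groups that hold both sets, Gadd45g was at -4.48 ± 0.72 (edgeR adjusted p = 0.0275), while Atf3 was at 1.92 ± 0.85 (0.416), Junb at 1.15 ± 0.73 (0.624) and Rgs2 at 1.58 ± 0.71 (0.42). That fit called 0.214% of all genes tested. Gadd45g, lower in each of the 3 groups than in CAG-GFP Sham, passed with this covariate in all 3 comparisons with it, at -3.23 ± 0.60 for CAG-GFP Pilo (edgeR adjusted p = 0.0355, beside 0.477% of all genes called) and -3.21 ± 0.54 for DREADD Sham (0.0211, beside 0.782%). These comparisons share the CAG-GFP Sham libraries. In DREADD Pilo against CAG-GFP Sham, astrocyte markers were lower in 14 of 14 (median -4.04, with Acsbg1 and Aldoc called). Neural stem cell markers were lower in 9 of 12 (-1.72, with Fabp7 called). Mature granule cell markers were higher in 11 and lower in 7 of 18 (1.03), and immature neuron markers higher in 5 and lower in 7 of 12 (-0.34). Oligodendrocyte markers were higher in 13 of 13 (2.91). Endothelial markers were higher in 14 of 14 (5.77). Oligodendrocyte precursor markers were higher in 8 of 8 (6.04, with Neu4, Pdgfra and Cspg4 called). The part of these cell types in the members' levels was not tested.

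DREADD Pilo against CAG-GFP Pilo asks what the silencing receptor does under seizures. Higher values were fitted for Atf3 (2.06 ± 0.68) and Fosb (2.30 ± 0.81), a lower one for Nrn1 (-1.98 ± 0.78), and 1.46 ± 0.69 for Btg2, each with an edgeR adjusted p of 0.882, and Acvr1c was at 0 in DREADD Pilo. Atf3, Fosb, Nrn1 and Acvr1c were the 4 members with an unadjusted p under 0.05; the count was 1 without DREADD Pilo 2 (beside 3.42% of all genes) and 7 without CAG-GFP Pilo 1 (beside 5.87%). Within set 2, with 3 against 2 libraries, the values were 1.73 ± 0.78 for Atf3 (edgeR adjusted p = 0.77), 1.78 ± 1.0 for Fosb (0.772), -1.62 ± 0.46 for Nrn1 (0.77) and 0.85 ± 0.72 for Btg2 (0.914), and 0% of all genes were called. The synaptic effectors were lower in 6 of 8, with a median of -2.81, beside 65.7% of all genes tested that were higher, and in 7 of 8 within set 2 (median -2.07), where 56% of all genes tested were higher. The median was -4.45 without DREADD Pilo 1 and -1.53 without DREADD Pilo 3. The mature granule cell markers were lower in 17 of 18 (median -2.88), at 142 to 912 CPM in DREADD Pilo and 2020 to 5340 CPM in CAG-GFP Pilo in sum. The endothelial markers were higher in 14 of 14 (median 2.81), the ependyma and choroid plexus markers in 11 of 11 (2.69) and the pericyte and smooth muscle markers in 7 of 10 (2.38). The microglia markers were lower in 14 of 15 (-1.06). The immature neuron markers were lower in 9 of 12 (-2.78), and the neural stem cell markers were higher in 8 of 12 (0.63). None of these markers passed the test. The part of these cell types in the difference was not tested. All 7 AP-1 and ATF genes were higher over all libraries (median 1.8), but 4 of 7 were within set 2 (median 0.15); without CAG-GFP Pilo 4 the median was 0.87 and without DREADD Pilo 2 it was 1.15.

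DREADD Pilo against DREADD Sham asks what seizures do in cells that carry the receptor. No member reached an unadjusted p of 0.05, where 5.18% of all genes did; without DREADD Pilo 1 there were 4 such members, 0 higher and 4 lower, beside 5.15% of all genes. Without DREADD Sham 4 there were 3, 2 higher and 1 lower, beside 5.65%. Rgs2 had a log2 fold change of 1.0 ± 0.55 (edgeR adjusted p = 0.996), Ier5 of 1.77 ± 1.01 (1) and Atf3 of 1.15 ± 0.67 (1), and within set 2 these were 0.42 ± 0.52 (0.916), 1.85 ± 1.2 (0.731) and 0.75 ± 0.75 (0.876). Acvr1c (edgeR adjusted p = 0.956) and Egr3 (1), at 0 and 2 counts in DREADD Pilo beside 271 and 85 in DREADD Sham, completed the 5 smallest. The 271 counts of Acvr1c all lay in DREADD Sham 1 and 2, which are of set 1. The members were higher in 19 and lower in 20 of 39 (21 and 18 under RLE scaling), beside 59% of all genes tested that were higher. The synaptic effectors were higher in 3 and lower in 5 of 8 (median -0.84). Immature neuron markers were lower in 10 of 12 (-3.51) and mature granule cell markers in 14 of 18 (-0.65). Endothelial markers were higher in 12 of 14 (1.29). None of these markers passed the test, and the part of these cell types in the members' levels was not tested.

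The interaction asks whether the difference between pilocarpine and sham was the same with the receptor as without it. Arc gave -8.61 ± 2.73 on the log2 scale (edgeR adjusted p = 0.371), Nrn1 -3.11 ± 1.08 (0.395), Fosb 2.78 ± 1.13 (0.412) and Btg2 2.38 ± 0.98 (0.412), with Npas4 (0.412) also among the 5 smallest. The Arc and Npas4 values depend on the near absence of counts in CAG-GFP Sham. Of the 39 members 7 had an unadjusted p under 0.05, and 3 without DREADD Pilo 2 (beside 8.46% of all genes). The synaptic effectors were negative in 7 of 8 (median -3.21), beside 59.6% of all genes tested that were positive, as were 17 of 18 mature granule cell markers (median -4.6), 12 of 13 oligodendrocyte markers (-4.49) and 8 of 8 oligodendrocyte precursor markers (-7.8), while 14 of 14 astrocyte markers were positive (4.02). The immature neuron markers were negative in 10 of 12 (-4.94), and the neural stem cell markers were positive in 8 of 12 (2.23). The part of these cell types in the members' values was not tested. Neither library set holds all 4 groups, so the interaction has no within-set value.

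**Figure D4:**
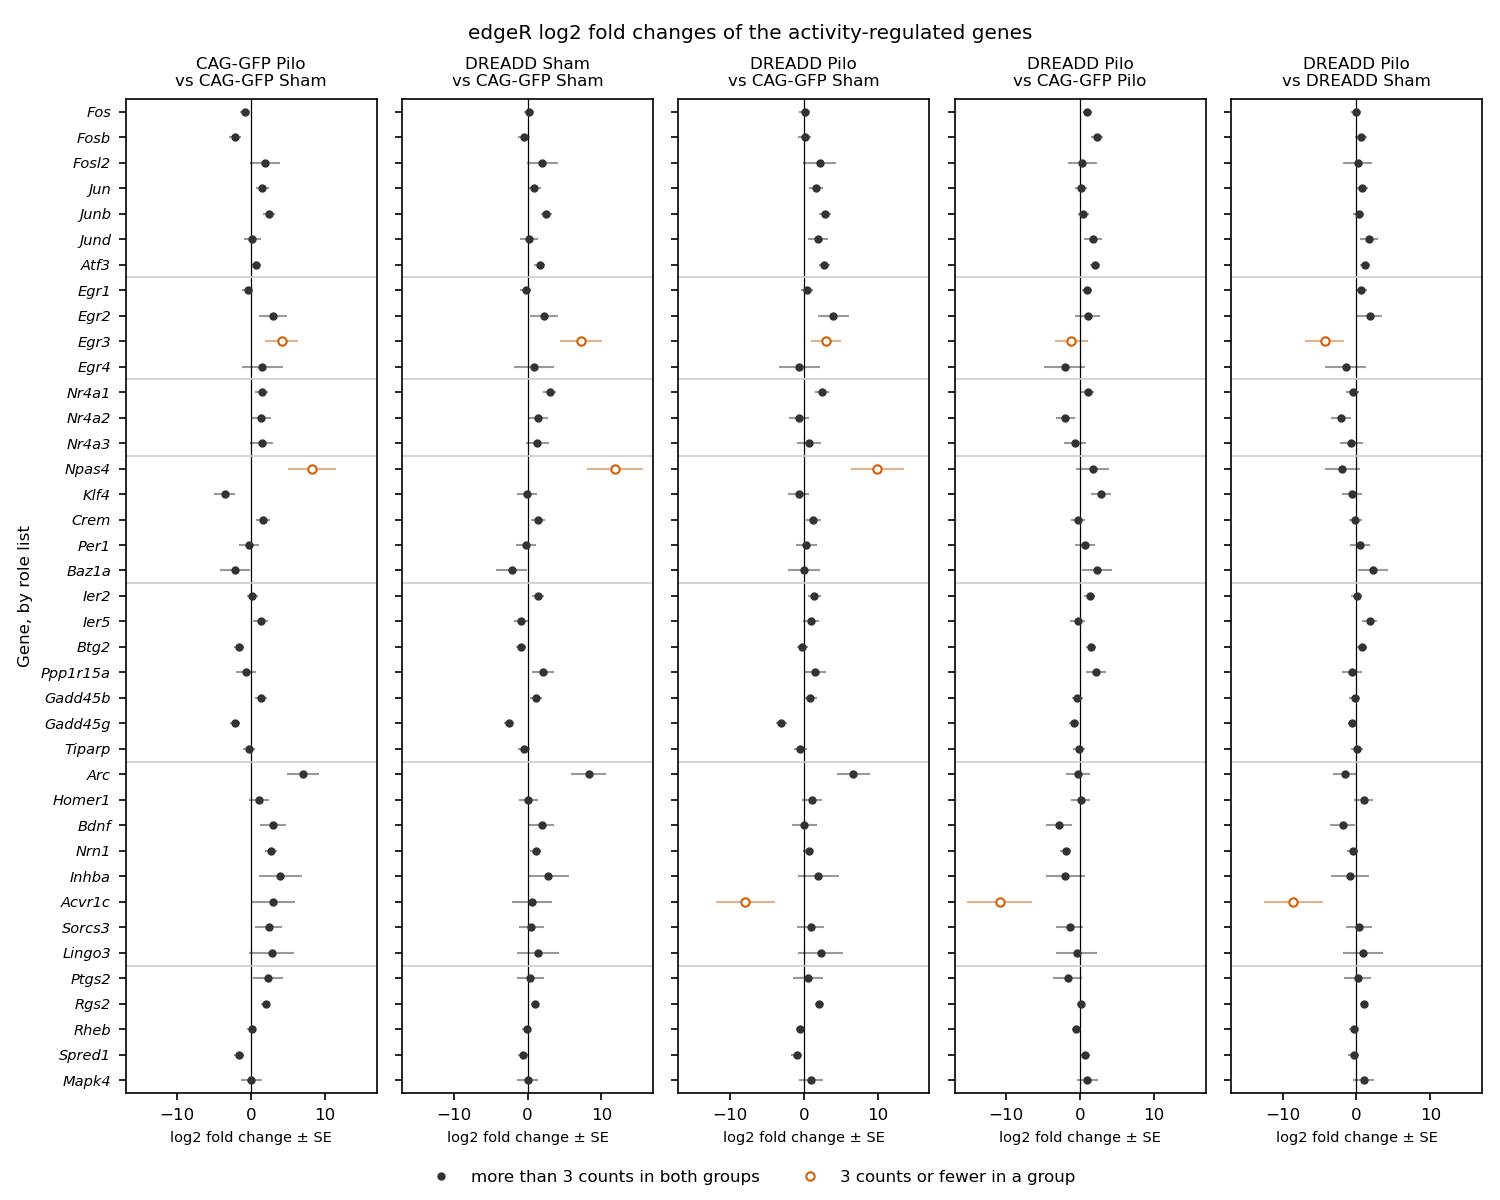
Log2 fold changes of the 39 members with standard errors (bars) in the 5 pairwise comparisons from edgeR; hollow points mark a gene with 3 counts or fewer in one of the groups, whose fold depends on the prior count. Gadd45g lies below 0 in the 3 comparisons with CAG-GFP Sham, and no member reached an unadjusted p of 0.05 in DREADD Pilo against DREADD Sham.

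The library set moved with the level of many members inside the 2 groups that hold both sets. For 11 of the 39 members (28.2%, beside 11.1% of all genes tested) both set 2 libraries were above both set 1 libraries in CAG-GFP Pilo and again in DREADD Sham. These were Fos, Fosb, Fosl2, Junb, Egr1, Nr4a3, Crem, Btg2, Ppp1r15a, Gadd45b and Gadd45g. For example, Ppp1r15a was at 99.2 and 55.9 CPM in the set 2 libraries and 23.8 and 0 CPM in the set 1 libraries of CAG-GFP Pilo, and at 670 and 367 CPM against 146 and 53.3 CPM in DREADD Sham. The opposite held for 4 members (10.3%, beside 9.4% of all genes tested), Egr4, Nrn1, Inhba and Sorcs3. By role, the first pattern was shown by 4 of 7 AP-1 and ATF genes, 1 of 4 EGR genes, 1 of 3 NR4A genes, 1 of 5 other transcription regulators and 4 of 7 feedback and stress genes, and the second by 1 of 4 EGR genes and 3 of 8 synaptic and secreted effectors. What distinguishes the sets beyond their library names is not given in the sources used here, and its part in these levels was not tested.

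**Figure D5:**
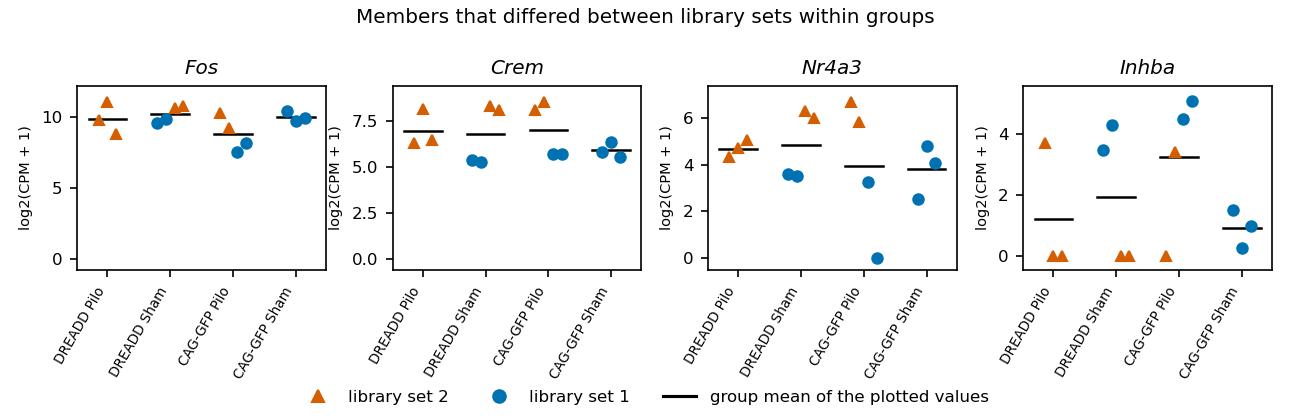
Levels of Fos, Crem, Nr4a3 and Inhba as log2(CPM + 1) in each library by group; triangles are set 2, circles set 1, and lines group means of the plotted values. In DREADD Sham and in CAG-GFP Pilo the triangles of Fos, Crem and Nr4a3 lie above the circles, and those of Inhba lie below.

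Genes around the members in the same pathway were described from 3 further lists. None of the 37 tested genes of upstream calcium, CREB, SRF and MEF2 signalling passed in any comparison, where at an unadjusted p under 0.05 there were 5 higher and 0 lower in CAG-GFP Pilo (beside 15.4% of all genes tested) against CAG-GFP Sham. Against the same group there were 2 higher and 1 lower in DREADD Sham (18.6%) and 2 higher and 3 lower in DREADD Pilo (19.2%). There were 1 higher and 5 lower in DREADD Pilo against CAG-GFP Pilo (5.36%), 1 and 1 in DREADD Pilo against DREADD Sham (5.18%) and 0 and 6 for the interaction (11.7%). None of 36 other activity-regulated genes passed. Beside the same shares, 1 of them was higher and 2 lower in CAG-GFP Pilo, 4 higher and 1 lower in DREADD Sham and 4 higher and 0 lower in DREADD Pilo, each against CAG-GFP Sham. There were 3 higher and 0 lower in DREADD Pilo against CAG-GFP Pilo, 1 and 0 in DREADD Pilo against DREADD Sham, and 2 and 1 for the interaction. Of 12 heat shock chaperones, which dissociation and sorting of tissue are known to induce, Hspa1b passed in CAG-GFP Pilo against CAG-GFP Sham and Hspa1b and Hspa1a in DREADD Pilo against CAG-GFP Sham. Hspa1b was at 1100, 412 and 158 CPM in DREADD Pilo, 91.5, 32.2, 44.1 and 56.2 CPM in DREADD Sham, 234, 272, 90.3 and 364 CPM in CAG-GFP Pilo, and 9.98, 6.71 and 5.76 CPM in CAG-GFP Sham, and it rose by 5.0 ± 0.82 in CAG-GFP Pilo (edgeR adjusted p = 0.0272) and by 6.22 ± 0.88 in DREADD Pilo (0.0139) against CAG-GFP Sham on the log2 scale. Hspa1a rose by 5.77 ± 1.01 in DREADD Pilo (edgeR adjusted p = 0.0338). Without any 1 of the CAG-GFP Sham libraries these 3 values had adjusted p-values of 0.127 to 0.179, 0.0697 to 0.0976 and 0.172 to 0.193; the first also missed the threshold without CAG-GFP Pilo 1, 2 or 4 (0.0678, 0.0763 and 0.0516), and the third without DREADD Pilo 1 or 2 (0.122 and 0.0863) or CAG-GFP Pilo 1 or 2 (0.0509 and 0.0505). The near-identical Hspa1a and Hspa1b share reads, so their split is uncertain. In DREADD Sham, every library was also above every CAG-GFP Sham library for both genes. The log2 fold changes there were 2.9 ± 0.73 for Hspa1b (edgeR adjusted p = 0.116) and 3.29 ± 0.88 for Hspa1a (0.13). Only the Pilo labels give a chamber temperature, and the part of the chamber in the Hspa1a and Hspa1b levels was not tested. The summed level of all 12 chaperones was split by library set, at 1760 to 4230 CPM in the 7 libraries of set 2 and 6120 to 8900 CPM in the 7 of set 1, and Hspa8 alone was at 69 to 226 CPM in set 2 and 2200 to 3710 CPM in set 1. Hspa8 was thus a large part of the set 1 sums, and the split does not hold for each chaperone. Hspa1b overlapped between the sets, at 44.1 to 1100 CPM in set 2 and 5.76 to 364 CPM in set 1. Group ranges of the chaperone sum follow which sets a group holds. The part of this sum in the level of stress-responsive members such as Atf3, Ppp1r15a and Fos was not tested.

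Reads may also be shared between members and overlapping genes. An annotated gene lies on the opposite strand of 14 members, among them Jun, Junb, Atf3, Crem, Bdnf and Nrn1, and on the same strand of 3 (Baz1a, Homer1 and Rheb). The strand setting of the counting is not given in the sources used here, so reads of a member and of such a partner cannot be told apart.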

How the data were processed

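RNA of 14 libraries was measured as gene counts. The deposited table holds raw whole-number counts per gene, without normalisation, as its values show. The submitters' processing notes list Bowtie2, Subread, featureCounts, edgeR and R 4.1.1 and the human build hg38, although the table's identifiers are those of mouse genes. Annotation release, strand setting and the handling of multiply matching reads: not given in the sources used here. Symbols and positions came from GENCODE M21 (GRCm38), which matched 42462 of 43346 identifiers (98%).

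The counts of all libraries entered 1 quasi-likelihood fit (edgeR 4.0.16 under R 4.3.3, TMM factors, filterByExpr, group as the only term, F-test), with Benjamini-Hochberg adjustment over 18676 genes and a threshold of 0.05. The common biological coefficient of variation was 1.47. A standard error is the log2 fold change divided by the square root of F. Role and marker lists were described by the difference in mean log2 CPM (prior count 2) and were not tested as sets. The code was tested on simulated data, with a pass condition set only for edgeR at a spread well below that of these data. No 2 libraries of a group were alike to within counting noise.

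Members and lists were chosen with earlier results of these data known. Full statistics were given per comparison to members past the test, then to those with the smallest p until 5 were named, and to the member of each role list with the highest mean CPM; genes of the pathway lists were named where they passed. Other members appear with their values, some chosen after those were seen. Alternatives were RLE and upper-quartile factors, DESeq2 1.42.0, limma 3.58.1 with voom, no filter, library set as a covariate, a replicate block, only the groups compared, each library set alone, each library left out, and, added after the data were seen, 3 libraries left out (DREADD Pilo 2 and 3, CAG-GFP Pilo 4).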

Additional observations from a re-analysis of the deposited data

Results flagged for a closer look

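In the 2 groups of 4 libraries, the gap of 1 library to the other 3 was examined for each member, and 6 of 78 pairs of gene and group held a library farther out than Dixon's 95% limit. For normally distributed values this limit flags about 1 in 20 by chance. The distribution of the CPM values was not tested and both groups hold both library sets, so the flags are descriptive only. Nr4a2 was at 135 CPM in DREADD Sham 4, against 1.13 to 18.5 CPM in the other DREADD Sham libraries. Baz1a was at 10.8 CPM in the same library, against 0 to 0.589 CPM in the others. Spred1 was at 218 CPM in DREADD Sham 3, against 18.9 to 46 CPM. Egr1 was at 226 CPM in CAG-GFP Pilo 1, against 18.1 to 52.4 CPM in the other CAG-GFP Pilo libraries. Egr2 was at 71.3 CPM in CAG-GFP Pilo 4, against 5.06 to 12.8 CPM. Bdnf was at 211 CPM in CAG-GFP Pilo 3, against 66.1 to 87.1 CPM. No member passed the interaction test.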

How the results depend on the processing

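The count of members past the threshold, 0 in every comparison, was also 0 with RLE or upper-quartile factors, without the filter, with the replicate block and with each library left out (0 to 0 in every comparison). For CAG-GFP Pilo against CAG-GFP Sham it was 7 with DESeq2, 2 with voom, 2 with library set as a covariate (Gadd45g and Nrn1), 1 with only these groups (Nrn1) and 5 within set 1. For DREADD Sham against CAG-GFP Sham it was 5 with DESeq2, 3 with voom, 1 with the covariate (Gadd45g), 3 with only these groups (Npas4, Gadd45g and Arc), 2 within set 1 and 1 with 3 libraries left out (Gadd45g). For DREADD Pilo against CAG-GFP Sham it was 6 with DESeq2, 2 with voom, 1 with the covariate (Gadd45g) and 6 with only these groups (Jun, Junb, Atf3, Egr2, Gadd45g and Rgs2), and for the interaction 2 with DESeq2 (Npas4 and Arc). Of 698 alternative values of the 30 named log2 fold changes of members, 658 kept an adjusted p above the threshold, 40 passed the test and 0 changed sign. The causes were not tested.

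Over all genes, the 45 calls for CAG-GFP Pilo against CAG-GFP Sham (13 higher) were 2203 with DESeq2 (1713 higher), 777 with voom, 89 with the covariate, 168 with only these groups, 471 within set 1, 128 with 3 libraries left out and 3 to 151 with 1 left out. The 56 calls for DREADD Sham against CAG-GFP Sham were 86 with upper-quartile factors, 2655 with DESeq2, 858 with voom, 146 with the covariate, 647 with only these groups, 530 within set 1, 390 with 3 left out and 6 to 260 with 1 left out. The 42 calls for DREADD Pilo against CAG-GFP Sham were 2723 with DESeq2, 1005 with voom, 2407 with only these groups and 4 to 152 with 1 left out. The 0 calls were 172 for DREADD Pilo against CAG-GFP Pilo and 158 for DREADD Pilo against DREADD Sham with DESeq2 (2 in the last with the covariate), and for the interaction 1461 with DESeq2, 37 with voom, 3 without the filter, 11 with the covariate and 0 to 1 with 1 left out. Same-numbered libraries did not deviate together (correlation -0.381 to 0.115 over 19 pairs). This cannot exclude pairing, because same-numbered CAG-GFP Pilo and DREADD Sham libraries always lie in different library sets. Pairing by the numbers in the library names was not tested. The replicate block gave 1, 0, 9, 0, 0 and 0 calls over all genes. Upper-quartile factors moved the median of all genes from 0.15 to 0 for DREADD Sham and from 0.55 to 0.36 for DREADD Pilo, each against CAG-GFP Sham on the log2 scale, and RLE moved the second to 0.68. Hspa1b and Hspa1a missed the threshold with voom (adjusted p 0.107 to 0.212), and with the block Hspa1b in CAG-GFP Pilo (0.0812) and Hspa1a (0.152), which also missed it with the covariate (0.0567).

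With 3 or 4 libraries a group and a common biological coefficient of variation of 1.47, a member that was not called is not shown to be unchanged. Arc in DREADD Sham against CAG-GFP Sham, for example, had a log2 fold change of 8.28 and an edgeR adjusted p of 0.148. Egr3, at 49 counts or fewer in any library, carries little information, and differences in it were not detectable at this depth. With 3 libraries left out, DREADD Pilo has 1 library, assumed to vary like the others. The interaction was not fitted with only some groups or within a set.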
